A study of Mus musculus with 212 samples.

Results

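Nkx2-5 was read in single mouse cells by 2 TaqMan assays, Nkx2.5-1 and Nkx2.5-2, which were taken by name from all 7 deposited tables. It is 1 gene of the 33 that the series measured and holds 2 of its 42 assays. The cells came from embryoid bodies (aggregates of differentiating embryonic stem cells), from embryos and from the atrial and ventricular chambers of hearts. Each cell was sorted into its own well, its RNA was reverse transcribed and pre-amplified, and every assay was then read by quantitative PCR on a microfluidic chip. Values are given here as 25 minus the deposited quantification cycle (Ct), in cycles above the detection limit, and 0 means not detected. A value 1 cycle higher means about double the template at full PCR efficiency, so the scale is a log2 scale.

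The tables held 200 cells in 21 named sets. The reference table had 5 cells of each of 6 types, called CPC, CM, SMC, FB, EDC and ES in the table, abbreviations that are kept here as given. The culture tables had 6 cells from each of D5, D6, D7 and D8 and 10 cells from each of D23 and D29. The embryo tables had 6 cells from each of E7.5, E8.5, E9.5 and E10.5, and a larger E10.5 set of 72 cells. The atrial and the ventricular table each had 5 neonatal and 10 adult cells. The labels give no strain, transgene, treatment, sorting marker or age in days for any set.

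The titles of 3 sets go against their tables: the D5 to D8 cells are titled as E10.5 cells, the E7.5 to E10.5 cells as late cells derived from ES cells, and the D23 and D29 cells as early ones. Cell names in each table match the name of that table. Sets are therefore called by table and cell name, and every stage below rests on that reading. Animals and cultures are not named in the labels. Each set is therefore 1 sample, no difference was tested, and each SD is the spread between cells. Of the 200 cells, 8 repeat a cell of another table in all 42 assays: the 6 cells of the smaller E10.5 set recur in the larger one, and 2 CM cells are also D29 cells. That leaves 192 distinct cells. The 6 negative control columns were at 0 on both Nkx2-5 assays.

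Nkx2-5 is a homeobox transcription factor, the vertebrate relative of the fly gene tinman, and one of the first genes switched on in the cells that will form the heart. It binds DNA together with the zinc finger factor Gata4 and the T-box factor Tbx5, and it acts on genes of the contractile apparatus. Cardiac muscle keeps it on after birth. The contractile genes followed beside it were Tnnt2 and Tnni3 (cardiac troponin T and I), Myh6 and Myh7 (alpha and beta myosin heavy chain), Myl2 (the ventricular regulatory light chain) and Actn2 (sarcomeric alpha-actinin).

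The gene lies on the minus strand of chr17:26838664-26844988 (RefSeq annotation of GRCm38.p6). The deposited tables name the assays by gene and number. The RefSeq promoter table lists 1 start for Nkx2-5, which lies inside that span and not at its 5′ end. Shown first are the 250 bases just before this start, and beside them 1 of 2 listed windows of the same length each for Myh7 and Tnnt2. Nkx2-5 is known for binding the element TNAAGTG and Gata4 for the element AGATAA. Both elements were searched on both strands, and matches are in capitals. These windows of Myh7 and Tnnt2 are shown because they hold a match, and the other listed window of each gene holds none. The windows are chr17:26841566-26841815 (minus strand) for Nkx2-5, chr14:54994627-54994876 (minus strand) for Myh7 and chr1:135836084-135836333 (plus strand) for Tnnt2, all from RefSeq on GRCm38.p6.
Nkx2-5: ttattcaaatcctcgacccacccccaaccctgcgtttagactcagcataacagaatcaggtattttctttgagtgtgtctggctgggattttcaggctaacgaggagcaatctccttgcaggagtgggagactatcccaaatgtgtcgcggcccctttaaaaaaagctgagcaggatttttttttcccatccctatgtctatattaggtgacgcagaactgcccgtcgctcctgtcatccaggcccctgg
Myh7: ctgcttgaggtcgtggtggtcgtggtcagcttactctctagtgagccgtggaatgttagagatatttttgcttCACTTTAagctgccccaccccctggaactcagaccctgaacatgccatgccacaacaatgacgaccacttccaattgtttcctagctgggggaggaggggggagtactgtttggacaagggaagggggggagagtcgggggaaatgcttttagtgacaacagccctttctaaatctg
Tnnt2: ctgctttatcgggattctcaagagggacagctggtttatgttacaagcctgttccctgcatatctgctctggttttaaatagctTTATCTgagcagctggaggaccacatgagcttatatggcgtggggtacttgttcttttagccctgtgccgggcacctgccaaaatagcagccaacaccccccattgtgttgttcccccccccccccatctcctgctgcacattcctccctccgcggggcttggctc

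The Nkx2-5 window held neither element. The Myh7 window shown held 1 TNAAGTG match, which begins 177 bases before the start, and the Tnnt2 window shown held 1 AGATAA match, which begins 166 bases before it. Of Nkx2-5, the 6 contractile genes and 7 other cardiac factors, 11 of 14 genes were in the RefSeq promoter table, with 16 windows; Gata4, Tbx5 and Hand1 were not matched. TNAAGTG occurred in 1 of the 16 windows, against 10.1% of the 32851 promoter windows of the same length. AGATAA occurred in 3 of the 16 (Hand2, Myl2 and Tnnt2), against 9.99%. No window held both elements, so no matches overlapped. A match describes these letters and no binding was measured.

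Both assays told the same cells apart. Among the 192 distinct cells, 129 gave signal on both Nkx2-5 assays, 56 on neither, 7 on Nkx2.5-1 alone and 0 on Nkx2.5-2 alone. Over the 129 cells Nkx2.5-1 read 2.51 ± 0.76 cycles above Nkx2.5-2 (SD between cells, n = 129), with a range from 1.01 to 5.33. The 7 cells with Nkx2.5-1 alone were at 0.17 (cell SMC-5), 5.10 (D23-8), 7.48 (D6-3) and 5.52, 6.81, 7.01 and 7.22 (E10.5-11, E10.5-57, E10.5-44 and E10.5-43 of the larger set). Apart from SMC-5, which stood at the detection limit, these cells had Nkx2.5-1 levels at which other cells read both assays. The assays share a gene and are no independent evidence, so Nkx2.5-1, the more sensitive of them, is quoted first and Nkx2.5-2 where it differs.

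Nkx2-5 was close to an on or off reading. Among the 136 distinct cells with Nkx2.5-1 signal the lowest value was 0.17 and the next 4.91. The 2 values below 5 cycles made up 1.47% of them, the smallest such share of the 42 assays, while 17.1% of the 129 Nkx2.5-2 values lay below 5. The positive control read 9.79 on Nkx2.5-1 and 8.45 on Nkx2.5-2 in the reference, D5 to D8 and E7.5 to E10.5 tables. It read 12.52 and 11.26 in the D23 and D29 table, and the larger E10.5 table has no control column. In both heart tables it was listed at 8.45 on Nkx2.5-1 and 12.70 on Nkx2.5-2, where the control's values are shifted by 1 row against the reference table. The heart cells kept Nkx2.5-1 above Nkx2.5-2, by 1.59 to 2.33 cycles in the means of the 4 heart sets. In the other sets with both assays the mean gap ran from 2.11 (E7.5) to 3.60 (D7). Both atrial sets and the adult ventricular set lay below that range. The rows of the heart cells were used as named because the order of the assays was kept, though with a smaller gap in those sets.

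Among the reference cells, Nkx2-5 was found in the CM cells and, at the detection limit, in 1 other cell. The 5 CM cells read 8.54, 8.39, 7.09, 7.5 and 7.5 on Nkx2.5-1, and 6.12, 6.26, 4.91, 4.72 and 4.53 on Nkx2.5-2. All 5 also carried all 6 contractile genes. Of the 25 other reference cells, 1 had any signal: SMC-5, at 0.17 on Nkx2.5-1 with 7.41 on Tnnt2-1 and no other contractile gene. The CM mean of 7.80 ± 0.63 (SD, n = 5) was at least 7.80 cycles above CPC, FB, EDC and ES, whose cells were all at 0, and 7.77 above SMC. Both Nkx2-5 assays were past 1 cycle in each of these comparisons, as were 31% of the assays against CPC, 35.7% against SMC, 35.7% against FB, 38.1% against EDC and 40.5% against ES. With 5 cells a type, 0 of 5 cells allows a share of up to 52.2% (exact Clopper-Pearson 95% interval, as in all intervals here, which cover counting error only).

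The CPC cells were not without cardiac factors. Gata4-2 was found in 4 of 5 CPC cells, Hand2 (a basic helix-loop-helix factor of the heart fields) in 5 and Tbx5 in 2, while Tnnt2 and both Nkx2-5 assays were at 0 in all 5. Of the markers that define other types, Cdh5, Pecam1 and Vwf were in all 5 EDC cells, Myh11 (smooth muscle myosin) in all 5 SMC cells and Pou5f1 (Oct4) in all 5 ES cells, but Pou5f1 was also read in every cell of the other 5 types. Pecam1 was also in 4 ES cells and 1 CPC cell, Vwf in 1 SMC cell, and Myh11 in 1 CPC and 1 FB cell. Pdgfra, a receptor of mesenchyme and of early cardiac mesoderm, was in all 5 CPC cells and in 0 of 5 FB cells, which also lacked Cdh5, Pecam1 and Vwf. Actb, the cytoskeletal actin, was at 10.58 to 12.25 in the CPC cells and at 5.93 to 7.28 in the CM cells, without overlap. The part of that gap in the Nkx2-5 difference was not tested.

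**Figure D1:**
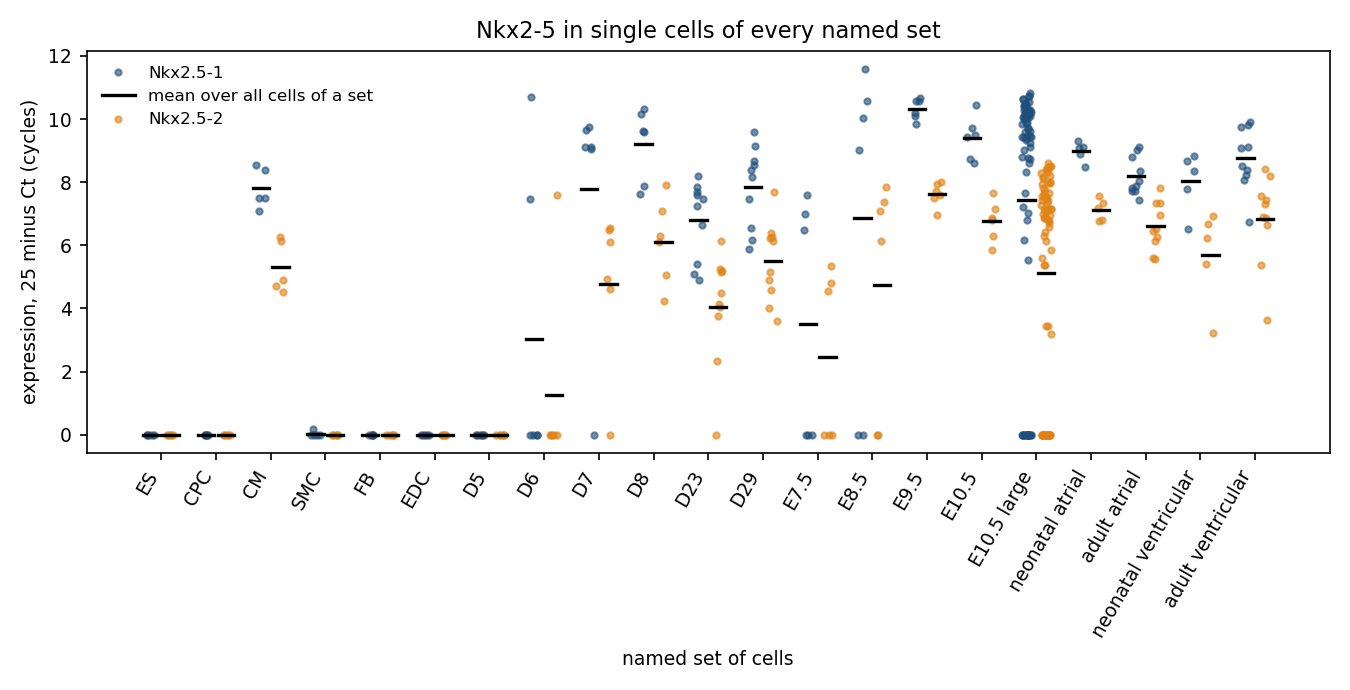
Level of Nkx2.5-1 (blue) and Nkx2.5-2 (orange) in every cell of the 21 named sets, as 25 minus Ct in cycles with 0 for not detected; each point is 1 cell and the black bars are means over all cells of a set. ES, CPC, FB, EDC and D5 cells are all at 0, D6, D7, E7.5, E8.5 and the larger E10.5 set hold cells at 0 and cells above 4 cycles, and all heart cells are detected on both assays.

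In culture, Nkx2-5 went from no cell at D5 to every cell at D8, and the number of cells with it changed more than the level in those cells. At D5 all 6 cells were at 0 on both assays, which allows a share of up to 45.9%. At D6, 2 of 6 cells had Nkx2.5-1, D6-3 at 7.48 and D6-6 at 10.69, and the other 4 were at 0. At D7, 5 of 6 cells had it, at 9.05, 9.11, 9.12, 9.66 and 9.74, and D7-1 was at 0. At D8 all 6 cells had it, from 7.62 through a median of 9.61 to 10.32. Cells that had the gene at D7 and at D8 overlapped in level, and among detecting cells the D8 mean minus the D7 mean was -0.14.

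In set means Nkx2.5-1 was 3.03 cycles higher at D6 than at D5 and 4.75 higher at D7 than at D6, and Nkx2.5-2 was 1.26 and 3.52 higher. Of the 42 assays, 45.2% were at least 1 cycle higher in the first of these steps and 35.7% in the second. From D7 to D8 the mean was 1.42 cycles higher on Nkx2.5-1 and 1.33 on Nkx2.5-2, where 28.6% of the assays were past 1 cycle. D8 stood at least 9.20 cycles above D5 on Nkx2.5-1, the fourth highest of the 42 differences, and 50% of the assays were past 1 cycle there. Actb was lower over the same days, with a median of 12.59 at D5 and 6.78 at D8.

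In embryos, Nkx2-5 was already present in part of the cells at the earliest stage. At E7.5, 3 of 6 cells had Nkx2.5-1, at 6.98 (E7.5-2), 6.49 (E7.5-5) and 7.58 (E7.5-6), and 3 were at 0. At E8.5, 4 of 6 cells had it, at 9.01, 10.02, 10.57 and 11.59, and 2 were at 0. All 6 E9.5 cells had it, from 9.85 through a median of 10.38 to 10.68, and all 6 cells of the smaller E10.5 set, from 8.60 through 9.46 to 10.45. The E7.5 cells that had the gene lay below every detecting cell of the E8.5, E9.5 and smaller E10.5 sets, but not below those of the larger E10.5 set, whose lowest was 5.52. E8.5 overlapped with E9.5 and E10.5.

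Set means were 3.36 cycles higher at E8.5 than at E7.5 and 3.46 higher at E9.5 than at E8.5 on Nkx2.5-1, against 2.28 and 2.88 on Nkx2.5-2. Over detecting cells alone the steps were 3.28 and 0.029 on Nkx2.5-1, and without E7.5-1 and E7.5-4, which had few detected assays, the first was 1.6. Steps of 1 cycle or more were common, since 52.4% and 54.8% of the assays were at least 1 cycle higher in these comparisons. E10.5 was above E7.5 by 5.89 cycles on Nkx2.5-1, with 57.1% of the assays past 1 cycle, and by 2.38 when only detecting cells were averaged. From E9.5 to E10.5 the mean was lower by less than 1 cycle, a difference of -0.93 on Nkx2.5-1 and -0.85 on Nkx2.5-2. In that step 33.3% of the assays were at least 1 cycle lower. It depended on the scale: relative to Actb of the same cell, which was lower at E10.5, the difference was 1.24.

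Cells with a contractile gene and no Nkx2-5 were sampled in both the early culture and the embryo table, and cells with Nkx2-5 and no contractile gene were sampled at E7.5. In the culture table Tnnt2 came without Nkx2-5 in 9 of 24 cells, and Nkx2-5 never came without Tnnt2. At D5, 4 of 6 cells had Tnnt2 and 5 had 1 or 2 contractile genes with no Nkx2-5, though only 1 of the 4 read on both Tnnt2 assays. These D5 values were low, at most 5.12 on Tnnt2-1, 5.64 on Tnnt2-2, 4.24 on Tnni3-1, 5.76 on Tnni3-2, 3.59 on Myl2 and 4.10 on Actn2. A contractile call could also come from any assay of 6 genes, and an Nkx2-5 call from 2 assays only. At D6, the 4 cells at 0 for Nkx2-5 all had Tnnt2, 1 of them (D6-4) at 9.39 on Tnnt2-1 and 9.31 on Tnnt2-2. The 2 D6 cells with Nkx2-5 were unlike each other: D6-3 had 2 contractile genes, with Tnnt2-1 at 4.57 and Myh7-2 at 4.07, and D6-6 had all 6 with Tnnt2-1 at 12.40. At D7 the 5 cells with Nkx2-5 had 5 or 6 contractile genes, and D7-1 had Tnnt2 alone.

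At E7.5 neither kind of cell was the more common. The 3 cells with Nkx2-5 had 0 of the 6 contractile genes, and the 3 cells without it had 1 or 2: E7.5-1 had Actn2 (4.42), E7.5-3 had Actn2 (4.28) and Myl2 (4.14), and E7.5-4 had Tnni3-2 (4.25). E7.5-1 and E7.5-4 had few detected assays for their table (10 and 12), and without them 1 such cell remained. Those contractile values were all below 5 cycles and none of the 6 cells had Tnnt2, Myh6 or Myh7. The 3 E7.5 cells with Nkx2-5 were the only ones of the 136 distinct Nkx2-5 cells with no contractile gene. At E8.5 the 4 cells with Nkx2-5 had all 6 contractile genes, with Tnnt2-1 at 11.34 to 12.97, and the 2 without it had 1 and 2. No cell between these states, with Nkx2-5 and 1 to 3 contractile genes, was sampled in the embryo tables. The culture and embryo cells are listed in separate tables of 24 cells each, and the labels name no preparation or chip run. The stages are those of the table names, and the difference between culture and embryo cells was not tested.

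**Figure D2:**
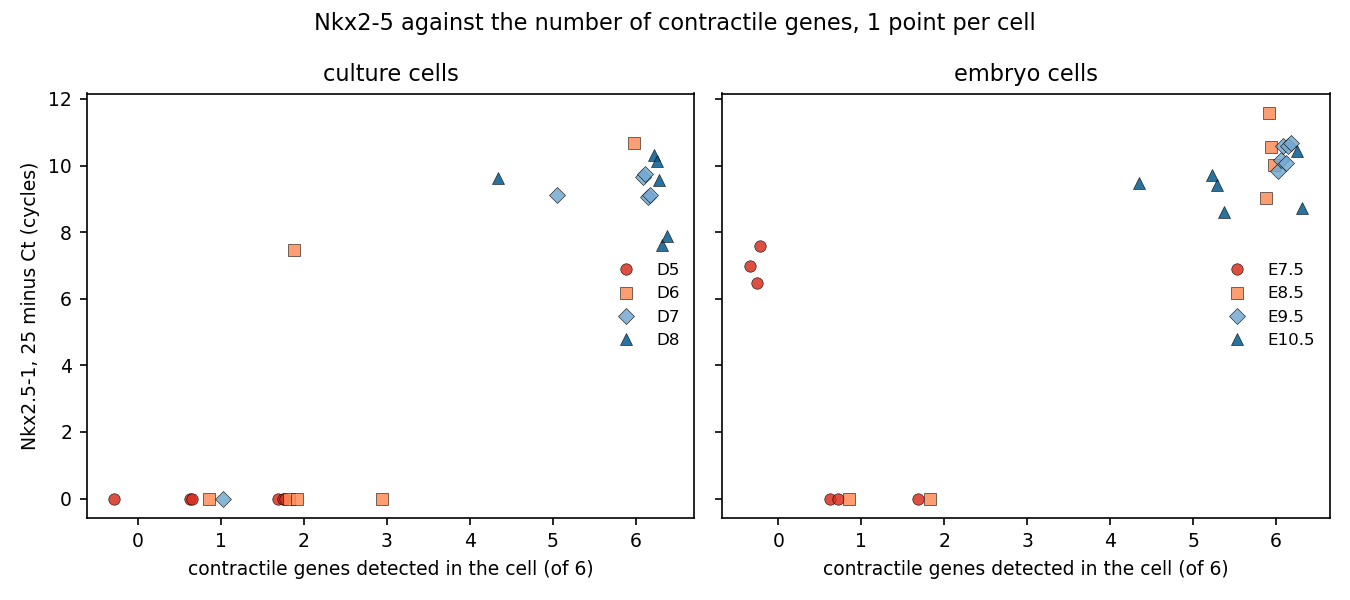
Nkx2.5-1 in each cell (25 minus Ct, cycles) against the number of contractile genes detected in the same cell (of 6), for D5 to D8 cells on the left and E7.5 to E10.5 cells on the right; points are shifted slightly sideways to separate them. The 3 E7.5 cells with Nkx2-5 stand at 0 contractile genes, and the 3 without it at 1 or 2. Of the 11 culture cells without Nkx2-5, 10 stand at 1 to 3.

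The E7.5 cells with Nkx2-5 carried endothelial genes. All 3 had Flk-1 (Kdr, the VEGF receptor of vascular and early cardiac mesoderm), at 9.68, 10.78 and 9.75, and Vwf (von Willebrand factor), at 5.30, 5.35 and 3.57. E7.5-5 and E7.5-6 also had Cdh5 (vascular cadherin), at 8.89 and 9.27, and Pecam1, at 5.65 and 4.34. Among the E7.5 cells without Nkx2-5, Flk-1 was found in 2, Cdh5 and Pecam1 in E7.5-4 and Vwf in 0, so Vwf was the gene of this list that followed Nkx2-5 in all 6 cells. At E8.5 the 2 cells without Nkx2-5 had Cdh5 (12.12 and 11.43), Flk-1 (10.95 and 9.90) and Pecam1, and 1 of them had Vwf. Of the 4 E8.5 cells with Nkx2-5, 1 had Pecam1 and 0 had Cdh5, Flk-1 or Vwf. In the culture table Cdh5, Pecam1 and Vwf were at 0 in all 13 Nkx2-5 cells.

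Of the other cardiac factors, Hand1, Gata4, Hand2 and Mesp1 were found in culture at D5, where no cell had Nkx2-5. Hand1 was in all 6 D5 cells, Gata4 in 5, Hand2 in 4 and Mesp1 in 3. Over D5 to D8, Gata4 and Hand2 were each in all 13 Nkx2-5 cells and in 9 of the 11 others. Mef2c, a MADS-box factor of muscle, was in all 13 and in 2 of the 11. Tbx5 was in 12 of the 13 and in 3 of the 11. Isl1, a LIM homeobox factor of progenitors, was in 7 and in 4, and Hand1 in 8 and in all 11. Mesp1, a factor of the first cardiac mesoderm, was in 1 and in 4. At E7.5, of the 3 cells with Nkx2-5, 2 had Gata4, 2 Hand1, 1 Tbx5, 1 Mef2c, 1 Hand2, 0 Isl1 and 0 Mesp1. Of the 3 cells without it, 3 had Gata4, 1 Hand1, 1 Mesp1 and 0 had Tbx5, Mef2c, Hand2 or Isl1.

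In the larger E10.5 set the cells with Nkx2-5 were those with high Tnnt2, and other contractile genes were higher at the median with overlapping ranges. It was found in 56 of 72 cells (77.8%, 95% interval 66.4 to 86.7). Those 56 cells read 5.52 at the lowest, 9.95 at the median and 10.82 at the highest on Nkx2.5-1. Every one of them had Tnnt2, Tnni3, Myh6 and Actn2, 54 had Myh7 and 52 had Myl2. Their Tnnt2-1 lay between 9.53 and 14.18. Their medians on Tnni3-1, Myh6-1, Actn2 and Myl2 were 9.89, 10.37, 10.47 and 12.82, against 0 on each in the other 16 cells. The ranges of these 4 assays overlapped. The lowest values in the 56 cells were 4.28, 4.11, 4.73 and 0, and the highest in the 16 cells were 5.24, 4.39, 5.81 and 6.63.

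The other 16 cells had little contractile signal but were not empty of it. Tnnt2 was found in 11 of them, up to 8.27 on Tnnt2-1, below all 56 cells with Nkx2-5. Tnni3 was in 6, Myh6 in 4, Myh7 in 8, Myl2 in 7 and Actn2 in 4. Across all tables, 134 distinct cells had at least 4 of the 6 contractile genes and 131 of these had Nkx2-5. The 3 exceptions were E10.5-8, E10.5-9 and E10.5-13 of this set, with 4, 5 and 6 contractile genes, Tnnt2-1 at 4.82, 6.84 and 6.98, and all assays of the other contractile genes at 5.54, 4.39 and 6.63 or lower.

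**Figure D3:**
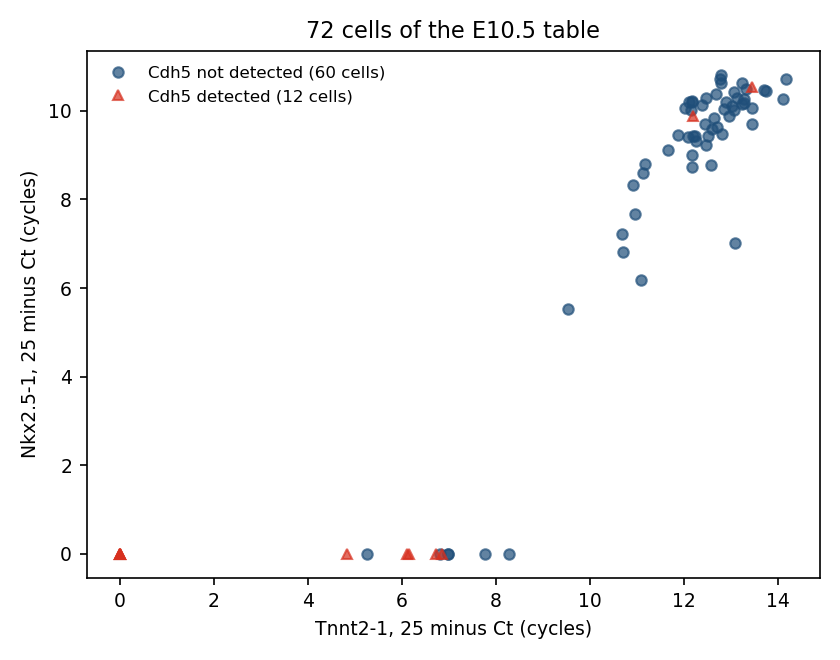
Nkx2.5-1 against Tnnt2-1 in the 72 cells of the larger E10.5 set (both 25 minus Ct, cycles), with the 12 cells in which Cdh5 was detected as red triangles. The 56 cells with Nkx2-5 lie at Tnnt2-1 of 9.53 or more, the 16 without it at 8.27 or less, and 10 of the 12 Cdh5 cells have no Nkx2-5.

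Cdh5, Pecam1 and Vwf were found at E10.5 in a smaller share of the cells with Nkx2-5 than of those without it. Flk-1 differed in the same direction, but less. Cdh5 was in 10 of the 16 cells without Nkx2-5 and in 2 of the 56 with it, Pecam1 in 11 and 1, Vwf in 7 and 6, and Flk-1 in 7 and 15. In the 2 cells with both Nkx2-5 and Cdh5, Cdh5 was at 5.17 and 6.26 while Nkx2.5-1 was at 9.88 and 10.55. Pdgfra was in 9 of the 16 and in 8 of the 56. The 16 cells had Actb at 9.45 to 12.27 and 13 to 23 detected assays, against 4.08 to 10.19 and 21 to 33 in the 56. The part of these differences in the Nkx2-5 reading was not tested.

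Cardiac factors divided in that set by whether they went with Nkx2-5. Gata4 was in 55 of the 56 cells and in all 16 others, and Hand2 in all 72, so neither separated the cells. Mef2c was in 55 and in 14. Tbx5 was in 51 of the 56 and in 4 of the 16, and Hand1 in 31 and in 1. Isl1 was found in 2 and 1 cells and Mesp1 in 1 and 0.

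Among the 56 cells the Nkx2-5 level went with that of several muscle genes. Across cells detecting both assays, Nkx2.5-1 correlated with Tnnt2-1 at Pearson r = 0.77 (Spearman rho 0.68, n = 56), with Actn2 at 0.66 (0.56, n = 56), with Myh6-1 at 0.60 (0.44, n = 56) and with Tnni3-1 at 0.52 (0.66, n = 56). Values were 0.58 for Gata4-2 (n = 54), 0.54 for Tbx5 (n = 51) and 0.28 for Myl2 (n = 52). These cells share 1 sample, and Nkx2.5-1 also correlated with Actb, at 0.50, in the same cells. With each cell centred on its Actb, r was 0.87 for Tnnt2-1 and for Actn2, where the shared Actb term itself adds correlation. The coefficients describe these cells only. Beside them, Nkx2.5-1 and Nkx2.5-2 of the same cells correlated at 0.91 (n = 52).

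In late culture every cell had Nkx2-5, with a lower mean than at D8. The 10 D23 cells read 4.91 at the lowest, 7.36 at the median and 8.19 at the highest, and the 10 D29 cells 5.87, 8.27 and 9.60. D23 minus D8 was -2.39 on Nkx2.5-1 and -2.07 on Nkx2.5-2, in a comparison where 50% of the assays were at least 1 cycle lower. The tables of D8 and D23 differ in their positive control, which was higher in the later one. Relative to that control the difference was -5.12. The 2 CM cells that recur as D29 cells hold the same values beside controls of 9.79 and 12.52 on Nkx2.5-1. These 2 cells are copies, so they cannot show whether the other D23 and D29 cells share the scale of their control. A scale difference between the tables was not tested, and -5.12 is not taken as a corrected difference. Relative to Actb of the same cell, D23 minus D8 was -1.14. D29 was above D23 by 1.05 and 1.45 cycles, with 38.1% of the assays at least 1 cycle higher. The D23 and D29 cells overlapped over most of their range.

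Beside Nkx2-5, 4 of the 6 contractile genes were in every late culture cell and the other cardiac factors in varying numbers. Tnnt2, Tnni3, Myh6 and Actn2 were in all 20 D23 and D29 cells, Myl2 in 10 of 10 and 8 of 10, and Myh7 in 7 of 10 at each day. Mef2c was in 8 of 10 D23 cells and in all 10 D29 cells. Gata4 was in 3 of 10 D23 cells and 9 of 10 D29 cells, Tbx5 in 8 and 9, Hand1 in 9 and 6 and Hand2 in 5 and 8. Cdh5, Pecam1 and Vwf were at 0 in all 20.

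In the heart, Nkx2-5 was detected by both assays in all 30 cells, in both chambers and at both ages. The 5 neonatal atrial cells read 8.5, 9.13, 9.08, 8.88 and 9.32 on Nkx2.5-1, and the 5 neonatal ventricular cells 8.84, 8.66, 8.34, 7.77 and 6.50. The 10 adult atrial cells ran from 7.44 through a median of 7.97 to 9.11, and the 10 adult ventricular cells from 6.75 through 8.80 to 9.89. All 4 ranges overlapped.

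No chamber or age difference reached 1 cycle on Nkx2.5-1. Neonatal atrial minus neonatal ventricular was 0.96 on Nkx2.5-1 and 1.44 on Nkx2.5-2, with 35.7% of the assays at least 1 cycle higher. Adult atrial minus adult ventricular was -0.57 and -0.23, with 23.8% at least 1 cycle lower. Adult minus neonatal was -0.79 and -0.53 in atrial cells, with 35.7% at least 1 cycle lower, and 0.73 and 1.14 in ventricular cells, with 31% at least 1 cycle higher. The neonatal atrial cells had Actb at 9.32 and 10.44 in 2 cells and at 4.54 to 4.96 in the other 3. Relative to Actb the neonatal chamber difference turned to -0.97 on Nkx2.5-1 and -0.49 on Nkx2.5-2, and the adult minus neonatal atrial difference to 1.09 on Nkx2.5-1.

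The small differences of Nkx2-5 stood beside chamber genes that differed by more than 12 cycles. The differences over all 42 assays ran from -12.58 to 12.52 between the neonatal chambers and from -13.36 to 13.21 between the adult ones. The atrial gene Sln (sarcolipin) was in all 15 atrial and 0 of 15 ventricular cells. Myl2 was in all 15 ventricular cells, in 1 of 5 neonatal atrial and in 0 of 10 adult atrial cells. The chamber labels fit Sln and Myl2, apart from that 1 atrial cell. By detection alone, Myh7 and Tbx5 separated the chambers less well. Myh7 was in 5 of 5 neonatal and 7 of 10 adult ventricular cells, and in 3 of 5 neonatal and 0 of 10 adult atrial cells. Tbx5 was detected in every atrial and ventricular cell, but its level differed. It lay at 7.09 to 8.97 in neonatal atrial and at 3.17 to 5.48 in neonatal ventricular cells, without overlap. The adult means were 8.32 ± 1.22 (SD, n = 10) in atrial and 6.35 ± 1.13 (n = 10) in ventricular cells, with overlapping ranges. Neonatal ventricular minus the larger E10.5 set was 0.61 on Nkx2.5-1, a set that includes the 16 cells at 0. The sign turned to -1.51 over detecting cells and -1.13 in medians (-1.41 and -0.65 on Nkx2.5-2). Of the assays, 23.8% of the assays were at least 1 cycle higher. Markers of endothelium were rare beside Nkx2-5 in the heart cells, with Cdh5 in 1 of 10 adult atrial, 2 of 10 adult ventricular, 1 of 5 neonatal ventricular and 0 of 5 neonatal atrial cells.

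Relative to troponin T of the same cell, Nkx2-5 was lower in heart cells than in embryo and early culture cells. The difference between 2 assays also holds their own efficiencies, so it is read only across sets and not as a ratio of transcripts. Nkx2.5-1 minus Tnnt2-1 was -1.93 ± 0.48 at D7 (SD, n = 5), -1.98 ± 1.03 at D8 (n = 6), -3.38 ± 1.2 at D23 (n = 10) and -3.72 ± 1.11 at D29 (n = 10). In embryo cells it was -2.14 ± 0.53 at E8.5 (n = 4), -2.63 ± 0.46 at E9.5 (n = 6) and -3.02 ± 0.38 at E10.5 (n = 6). In both series the later set lies lower, and the spreads of neighbouring sets overlap.

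Heart cells stood lower again. The difference was -4.29 ± 0.15 in neonatal atrial (n = 5), -5.21 ± 0.43 in neonatal ventricular (n = 5), -4.91 ± 1.07 in adult atrial (n = 10) and -5.76 ± 0.71 in adult ventricular cells (n = 10). With Myh6-1 in place of Tnnt2-1 it was 0.85 ± 0.48 at E8.5 (n = 4), -0.90 ± 1.03 at E9.5 (n = 6), -6.32 ± 0.74 in adult atrial (n = 10) and -6.02 ± 1.01 in adult ventricular cells (n = 10). With Tnni3-1 it was 3.31 ± 1.98 at E8.5 (n = 4) and -5.12 ± 0.85 in adult ventricular cells (n = 10). All 3 contractile assays thus gave the same order for E8.5 and adult ventricular cells. Relative to Actb the order was the opposite, with Nkx2.5-1 minus Actb at -0.54 ± 0.56 at E8.5 (n = 4) and 3.53 ± 1.52 in adult ventricular cells (n = 9 with Actb detected).

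**Figure D4:**
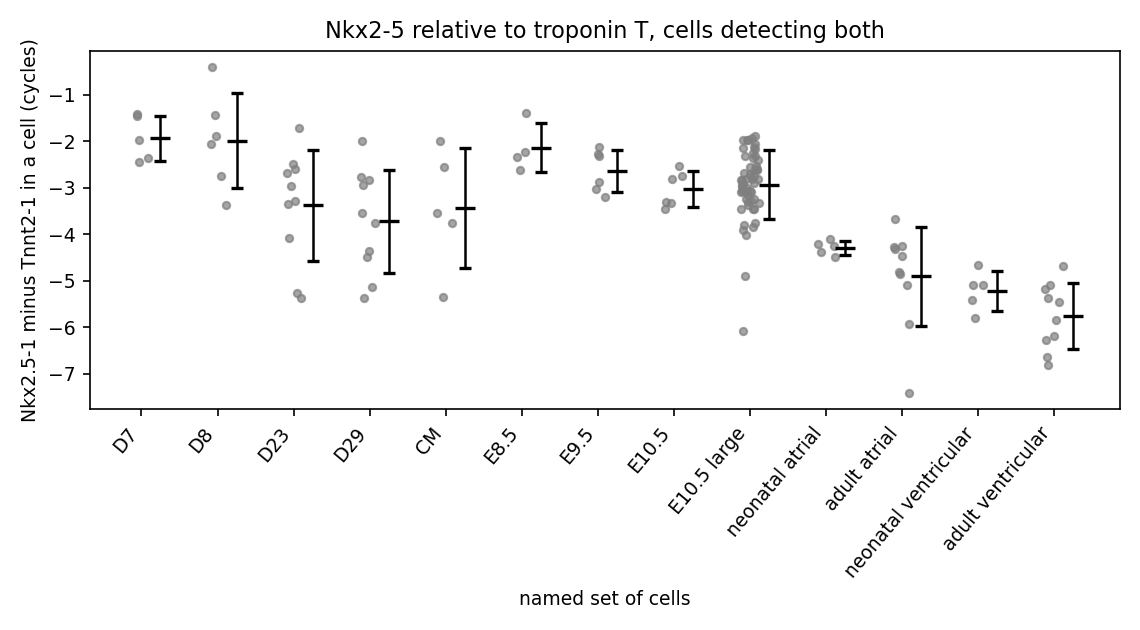
Nkx2.5-1 minus Tnnt2-1 within each cell that detected both assays (cycles), by named set, with 1 grey point per cell and the mean and SD between cells in black. Means lie between -1.93 and -3.72 in the culture, embryo and CM sets and between -4.29 and -5.76 in the heart sets.

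Across all 21 sets the order of mean Nkx2.5-1 had E9.5 first at 10.33 ± 0.34 (SD, n = 6), then the smaller E10.5 set at 9.40 ± 0.68 (n = 6), D8 at 9.20 ± 1.16 (n = 6), neonatal atrial at 8.98 ± 0.31 (n = 5) and adult ventricular at 8.76 ± 0.98 (n = 10). Adult atrial (8.19 ± 0.60, n = 10), neonatal ventricular (8.03 ± 0.94, n = 5), D29 (7.86 ± 1.29, n = 10) and CM (7.80 ± 0.63, n = 5) followed. D7 (7.78 ± 3.82, n = 6), the larger E10.5 set (7.42 ± 4.12, n = 72) and E8.5 (6.86 ± 5.38, n = 6) have wide spreads because they mix cells at 0 with detecting cells. D23 (6.81 ± 1.22, n = 10), E7.5 (3.51 ± 3.86, n = 6) and D6 (3.03 ± 4.80, n = 6) came next. The gap to the next set was below the SD of both sets for 12 of the 20 neighbouring pairs, among them every pair from the smaller E10.5 set down to D23. Neighbours in that stretch are not set apart by these cells.

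D8 culture cells and E9.5 embryo cells, the first sets in which every cell had the gene, differed by little more than 1 cycle. D8 minus E9.5 was -1.13 on Nkx2.5-1 and -1.50 on Nkx2.5-2, where 57.1% of the assays were at least 1 cycle lower. Relative to Actb, to the median detected assay or to Tnnt2-1 of each cell, the Nkx2.5-1 difference was 0.65, 0.42 and 0.65. D5 minus E7.5 was -3.51 and -2.45, in a comparison where 19% of the assays were at least 1 cycle lower, and Nkx2.5-1 ranked 41 of 42 from the highest difference.

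The assays whose set means were most like the mean of the 2 Nkx2-5 assays were contractile ones. Over the 21 sets, Pearson r was 0.97 for Actn2, 0.96 for Tnnt2-1, 0.96 for Myh6-2, 0.95 for Myh6-1 and 0.95 for Tnnt2-2. The nearest transcription factor was Tbx5, which ranked 8 at 0.89. Gata4-2 was at 0.66, Hand2 at 0.42 and Hand1 at -0.18, and Actb was the lowest at -0.71. Over the 192 distinct cells, 4 of the first 5 assays were the same, with Myh6-2 and Actn2 at 0.91. The values describe these sets, which share cell types and tables, and carry no test.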

How the data were processed

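The authors deposited quantification cycles (Ct) of 42 TaqMan assays for single cells in 7 tables, here treated as a score. Per the labels' protocols, single cells were sorted into strips, reverse transcribed with a one-step kit, pre-amplified and read on Fluidigm chips in a BioMark instrument. The values end at 25, which is taken as no signal. The threshold, any filter on cells and any correction to a reference gene: not given in the sources used here.

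Expression was computed as 25 minus Ct with Python 3.11.15, pandas 2.3.3, numpy 2.4.6 and scipy 1.17.1, and plotted with matplotlib 3.10.9. For genes with 2 assays, either assay counted as detected. Set means, SDs between cells, exact intervals, co-detection counts and differences of means were computed, and 1 cycle was taken as the size of a called difference. The difference and co-detection steps were tested on simulated data. Precision is limited by 5 to 72 cells per set and by the limit at Ct 25, which makes differences against an undetected set lower bounds.

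Named genes were the 6 contractile genes, 7 cardiac factors (Gata4, Tbx5, Mef2c, Hand1, Hand2, Isl1, Mesp1), 6 genes of other lineages (Cdh5, Pecam1, Vwf, Myh11, Pdgfra, Pou5f1) and the 5 assays whose set means were most like the mean of both Nkx2-5 assays. Sln and Flk-1 are markers of the fixed cell type lists, and Actb serves as the reference for centring. The gene and these lists were chosen with earlier results of these data known. Alternatives were each cell centred on its Actb or its median detected assay, a limit at Ct 23, medians, means of the detecting cells alone where a set had 3 or more, both assays required, Spearman correlation and leaving out 6 cells of low detection (detected assays more than 3 scaled median absolute deviations below their table's median, or no Actb). Chosen after the data were seen were values relative to Tnnt2-1 or to the positive control, and leaving out repeated cells.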

Additional observations from a re-analysis of the deposited data

Results flagged for a closer look

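Within each set of 5 to 10 cells, the highest or lowest cell was set against its nearest neighbour by Dixon's test, which chance alone meets in about 1 in 20 sets. Over 29 such combinations of set and assay it marked 4 Nkx2-5 values in 3 cells. Where all other cells are at 0, any single detecting cell is marked whatever its level, as for the first 2 values here. On Nkx2.5-1, SMC-5 read 0.1652 while the other 4 SMC cells were at 0. On Nkx2.5-2, D6-6 read 7.587 and the other 5 D6 cells were at 0. D7-1 was at 0 on both assays, where the nearest D7 cell read 9.05 on Nkx2.5-1 and 4.623 on Nkx2.5-2. D6-6 and D7-1 were also the extremes of their day in contractile genes, with 6 and 1 detected.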

How the results depend on the processing

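Of 365 values under other settings, 288 were counted as close to the value reported. Close meant within the spread between cells, for counts within the 95% interval and for correlations within 0.2. In sets that mix cells at 0 with detecting cells this spread is wide, so the count is no measure of robustness. On Nkx2.5-1, D6 minus D5 went from 3.03 to 0 in medians with a spread of 3.39. E9.5 minus E8.5 went from 3.46 to 0.029 over detecting cells with a spread of 3.81. Both were counted as close. A changed sign of a difference past 1 cycle was not counted as close. The overlap of the 5 most like assays was counted as close without such a bound. Of all 365, 33 had the other sign, and for 15 of these the reported difference was past 1 cycle. The other sign changes lie in E10.5 minus E9.5, neonatal ventricular minus the larger E10.5 set (-2.28 relative to Tnnt2-1) and the 4 heart comparisons. On Nkx2.5-1, D8 minus D7 turned to -0.14 over detecting cells and to -0.051 relative to Tnnt2-1. Relative to Tnnt2-1, D29 minus D23 turned to -0.34 (-0.41 on Nkx2.5-2) and E9.5 minus E8.5 to -0.49 (-0.0089). D8 minus E9.5 turned to 0.65 centred on Actb, 0.42 on the median assay and 0.65 relative to Tnnt2-1, and on Nkx2.5-2 to 0.27, 0.044 and 0.28. On Nkx2.5-2, adult minus neonatal ventricular turned to -0.13 on the median assay and -0.13 relative to Tnnt2-1, and neonatal atrial minus ventricular to -0.49 on Actb. The cause was not tested.

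On Nkx2.5-1 these differences moved by more than the spread between cells. Centred on Actb, D8 minus D5 was 12.03, D23 minus D8 -1.14, E10.5 minus E9.5 1.24, E10.5 minus E7.5 9.97, neonatal ventricular minus the larger E10.5 set 4.10, adult minus neonatal atrial 1.09, neonatal atrial minus ventricular -0.97, and CM minus CPC, SMC, FB, EDC and ES 12.88, 12.46, 9.59, 9.24 and 11.22. On the median assay, E10.5 minus E9.5 was 0.18, adult minus neonatal atrial -1.31, adult minus neonatal ventricular -0.54 and CM minus SMC 8.41. Relative to Tnnt2-1, E10.5 minus E9.5 was -0.39, adult minus neonatal ventricular -0.54 and adult atrial minus ventricular 0.85. At Ct 23, D8 minus D5 was 7.20 and CM minus each other type 5.80, by construction 2 cycles less. D7 minus D6 was 9.12 in medians, E10.5 minus E7.5 2.38 over detecting cells and D23 minus D8 -5.12 relative to the positive control. With both assays of a gene required, cells with Tnnt2 and no Nkx2-5 fell to 1 at D5 and to 0 at E8.5. Leaving out cells of low detection kept the 20 values recomputed within the spread between cells or the interval of a count, but with so few cells these are wide: E8.5 minus E7.5 went from 3.36 to 1.6 (2.28 to 1.06 on Nkx2.5-2), and E7.5 cells with a contractile gene and no Nkx2-5 from 3 to 1.

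No paired analysis was possible because the numbers in the labels name single cells and no comparison between sets was tested. The early sets hold 5 or 6 cells of 1 sample each, and a level under the limit at Ct 25 reads as absent.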
